A study of Mus musculus with 12 samples.

Results

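The Slc25 family is the large group of carrier proteins of the inner mitochondrial membrane, and its transcripts were followed here in the prefrontal cortex of cocaine-treated mice. The genes were chosen by name: every gene whose symbol is Slc25a followed by a number and whose locus the deposited tables mark as having enough data for a comparison (status OK). Of 47 such symbols in the tables, 41 met this rule at any time point, 39 at 2 h, 41 at 24 h and 39 at 7 d, among 14809, 15288 and 15236 named genes with that status. No expression value entered the choice, but the status itself depends on depth. The samples were polyA RNA from the bilateral prefrontal cortex of male C57BL/6 mice (C57BL/6 J in the methods), 10 weeks old, that had received an intraperitoneal injection every day for 14 days. The treated groups were given cocaine at 20 mg/kg and the control groups saline, and tissue was taken at 2 h, 24 h or 7 d of withdrawal. Each time point had its own saline control. The 6 groups had 2 libraries apiece, made from pools of 5 mice. Injections were given by the experimenter, so the groups model repeated exposure and withdrawal, not drug taking.

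Slc25 carriers move metabolites, nucleotides, phosphate and cofactors across a membrane that is otherwise closed to them, usually by exchanging a solute on one side for a solute on the other. The ADP/ATP carriers and the phosphate carrier feed ATP synthase, the aspartate/glutamate carriers and the oxoglutarate carrier make up the malate-aspartate shuttle that neurons use to bring reducing equivalents into mitochondria, and the glutamate carriers let glutamate into the matrix. Other members carry coenzymes, iron or amino acids, and several remain without a settled substrate.

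The tables hold a single FPKM, a count of fragments corrected for transcript length and for the number of fragments mapped, per group, pooled by the authors over the 2 libraries. No value per library, no spread within a group and no test is therefore given here. The depth behind each FPKM is unknown. Ratios are log2 of cocaine over saline after adding 0.1 FPKM to both, which understates the ratio of low genes, and a gene is counted as past the threshold at 1.2-fold or more. As the only measure of how far pools of control mice lay apart, the saline groups of the 3 time points were compared. They came from separately normalized tables, so that levels set across time points are a description. The tissue carried the transcripts of cortical projection neurons (Slc17a7 at 466 to 532 FPKM and Tbr1 at 27.6 to 33.5 FPKM over the 6 groups), and the 4 olfactory bulb markers looked for had no locus with status OK at any time.

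**Figure D1:**
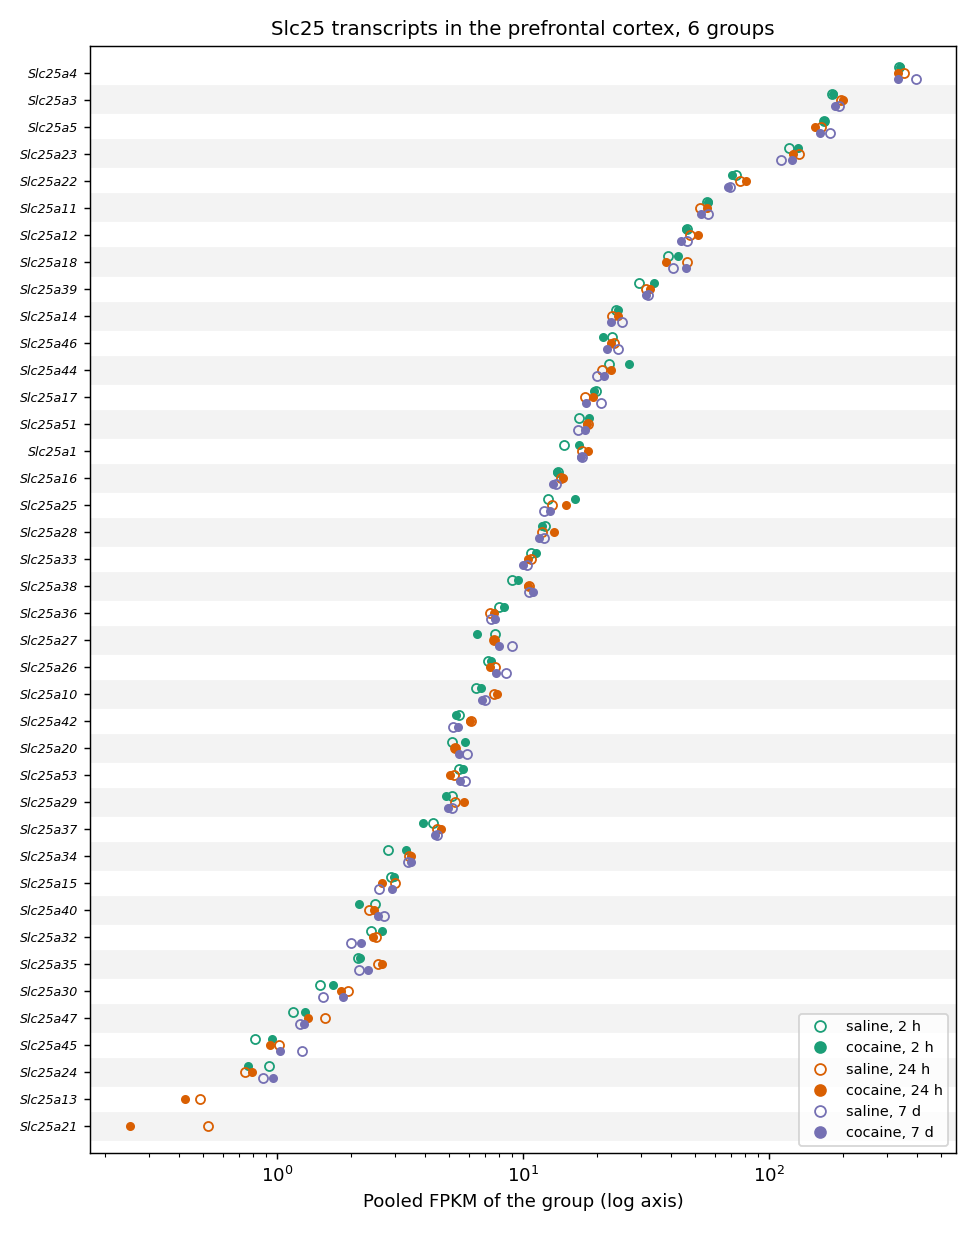
Pooled FPKM of 40 of the 41 Slc25 carriers (log axis) in the saline groups (open circles) and the cocaine groups (filled circles) at 2 h, 24 h and 7 d, ordered by mean level. The members ran from Slc25a21 at 0.251 FPKM to Slc25a4 at 396 FPKM, and the 6 circles of a member lay close together against that range.

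The family was dominated by a few carriers of energy metabolism. Slc25a4, the ADP/ATP carrier of heart, muscle and brain, had the highest level of the family in all 6 groups. The next were the phosphate carrier Slc25a3, the second ADP/ATP carrier Slc25a5, the calcium-regulated ATP-Mg/phosphate carrier Slc25a23, the glutamate carrier Slc25a22 and the oxoglutarate carrier Slc25a11. These 6 genes made up between 70.3% and 71.8% of the summed FPKM of the 39 members measured at all times. Of the others, 15 members had a mean of 10 to 50 FPKM over the groups, 17 lay between 1 and 10 FPKM, and Slc25a24 lay below 1 FPKM. Slc25a13 and Slc25a21 were measured at 24 h only, at 0.423 to 0.486 and 0.251 to 0.523 FPKM. The 6 members that never reached the required status were Slc25a2, Slc25a31, Slc25a41, Slc25a43, Slc25a48 and Slc25a54, with highest levels of 0.0280 (Slc25a54) to 0.243 FPKM (Slc25a43). Among them are the germ-cell ADP/ATP carrier Slc25a31 and the second ornithine carrier Slc25a2.

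Paralogs with related substrates differed widely in level. The aspartate/glutamate carrier Slc25a12 (aralar) stood at 43.6 to 51.2 FPKM, while its liver paralog Slc25a13 (citrin) stayed below 0.5 FPKM in both groups that measured it. Among the ATP-Mg/phosphate carriers Slc25a23 stood at 112 to 132 FPKM, Slc25a25 at 12.2 to 16.2 FPKM and Slc25a24 at 0.737 to 0.959 FPKM. The ratio of Slc25a4 to Slc25a5 was 2.02 to 2.24 across the 6 groups. These levels are per length of transcript. The files do not say how reads from near-identical copies of Slc25a5 were assigned beyond the use of uniquely mapped reads, so its level is uncertain.

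Cocaine and saline groups differed little in most carriers. At 2 h, 1 of 39 members was past 1.2-fold (Slc25a25, higher in cocaine), against 24.2% of all 16012 loci with status OK, of which 12.5% were higher and 11.7% lower. At 24 h, 2 of 41 members were past it (Slc25a18 and Slc25a21, both lower), against 18.7% of 17143 loci (9.36% higher and 9.37% lower). At 7 d, 1 of 39 was past it (Slc25a45, lower), against 26.9% of 16769 loci (12.6% higher and 14.3% lower). The share of members was thus below that of all loci at each time, which was also so among genes of higher level: with a mean of at least 1 FPKM, 1 of 37, 1 of 37 and 1 of 38 members were past 1.2-fold, against 18.7%, 12.7% and 21.1% of loci, and with a mean of at least 5 FPKM, 1 of 28, 1 of 29 and 0 of 29 members, against 11.3%, 7% and 16.3% of loci. Whether the family differs from other genes in this was not tested.

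The lean of the family changed with time by a small amount. In the order 2 h, 24 h, 7 d, the members had median log2 ratios of 0.05, 0.00 and -0.04, beside 0.02, 0.01 and -0.01 over all loci. The split of members above and below a ratio of 0 was 27 to 12, then 21 to 20, then 15 to 24, where over all loci it was 8690 to 7322, 8902 to 8241 and 8197 to 8570. Loci with a mean of at least 5 FPKM had medians of 0.02, 0.01 and -0.03, and members at that level 0.04, 0.03 and -0.06. At 7 d those loci split 3762 to 4959, so loci of that level also leaned lower then. With the trend of ratios with transcript length subtracted, described further on, the members' median at 7 d was 0.02, so the direction of the lean at 7 d depended on that step. The median size of the ratio, whatever its sign, was 0.0786, 0.0693 and 0.0899 for the members and 0.126, 0.102 and 0.146 for all loci. At a looser threshold of 1.1-fold, 13, 7 and 12 members were counted, beside 46.7%, 39% and 52.3% of loci. Of these, 10, 2 and 4 members were higher (25.5%, 19.9% and 25.2% of loci), and 3, 5 and 8 were lower (21.2%, 19.2% and 27.1% of loci). At 1.5-fold, 0, 1 and 0 members were counted, beside 7.73%, 5.81% and 7.75% of loci.

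**Figure D2:**
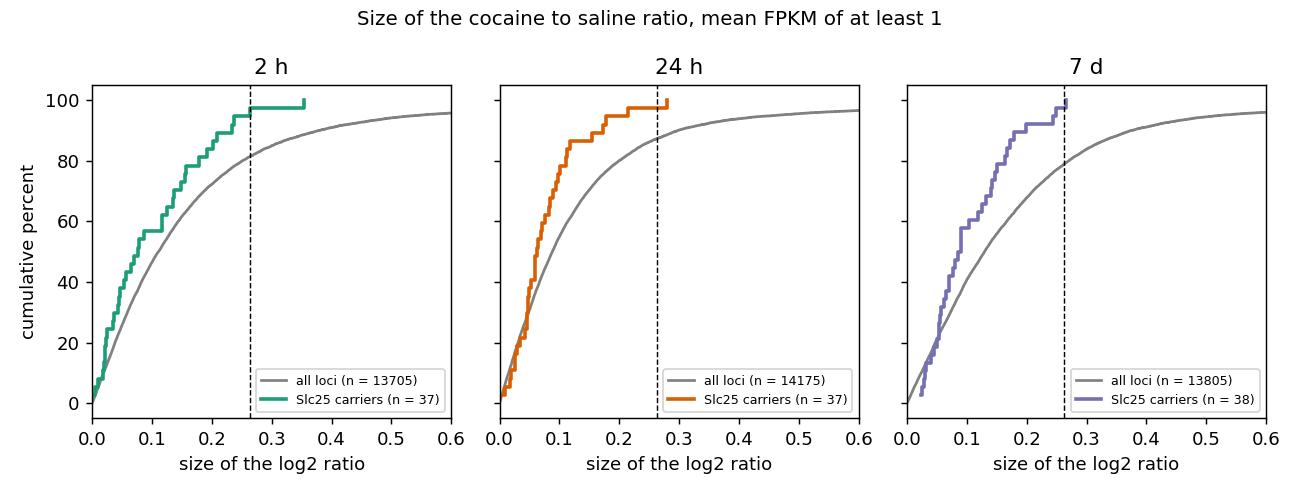
Cumulative percent of genes (vertical axis) whose log2 ratio is at most the size on the horizontal axis, for Slc25 carriers (coloured) and all loci (grey) with a mean of at least 1 FPKM, with a dashed line at 1.2-fold. The carriers' curves rise faster than those of all loci, and the largest member ratios in these panels are 0.35 (2 h), 0.28 (24 h) and 0.27 (7 d).

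The levels of the 39 members measured at all times summed at 2 h to 1314 FPKM in saline and 1347 FPKM in cocaine. The sums were 1370 and 1350 FPKM at 24 h, and those of 7 d were 1396 and 1311 FPKM. Cocaine less saline, as a percentage of saline, was thus 2.52% at 2 h, -1.49% at 24 h and, at 7 d, -6.12%. At 7 d the difference of Slc25a4 alone was -61.4 FPKM, out of -85.4 FPKM for the family. Without Slc25a4 the difference of the sums at 7 d was -2.40%.

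**Figure D3:**
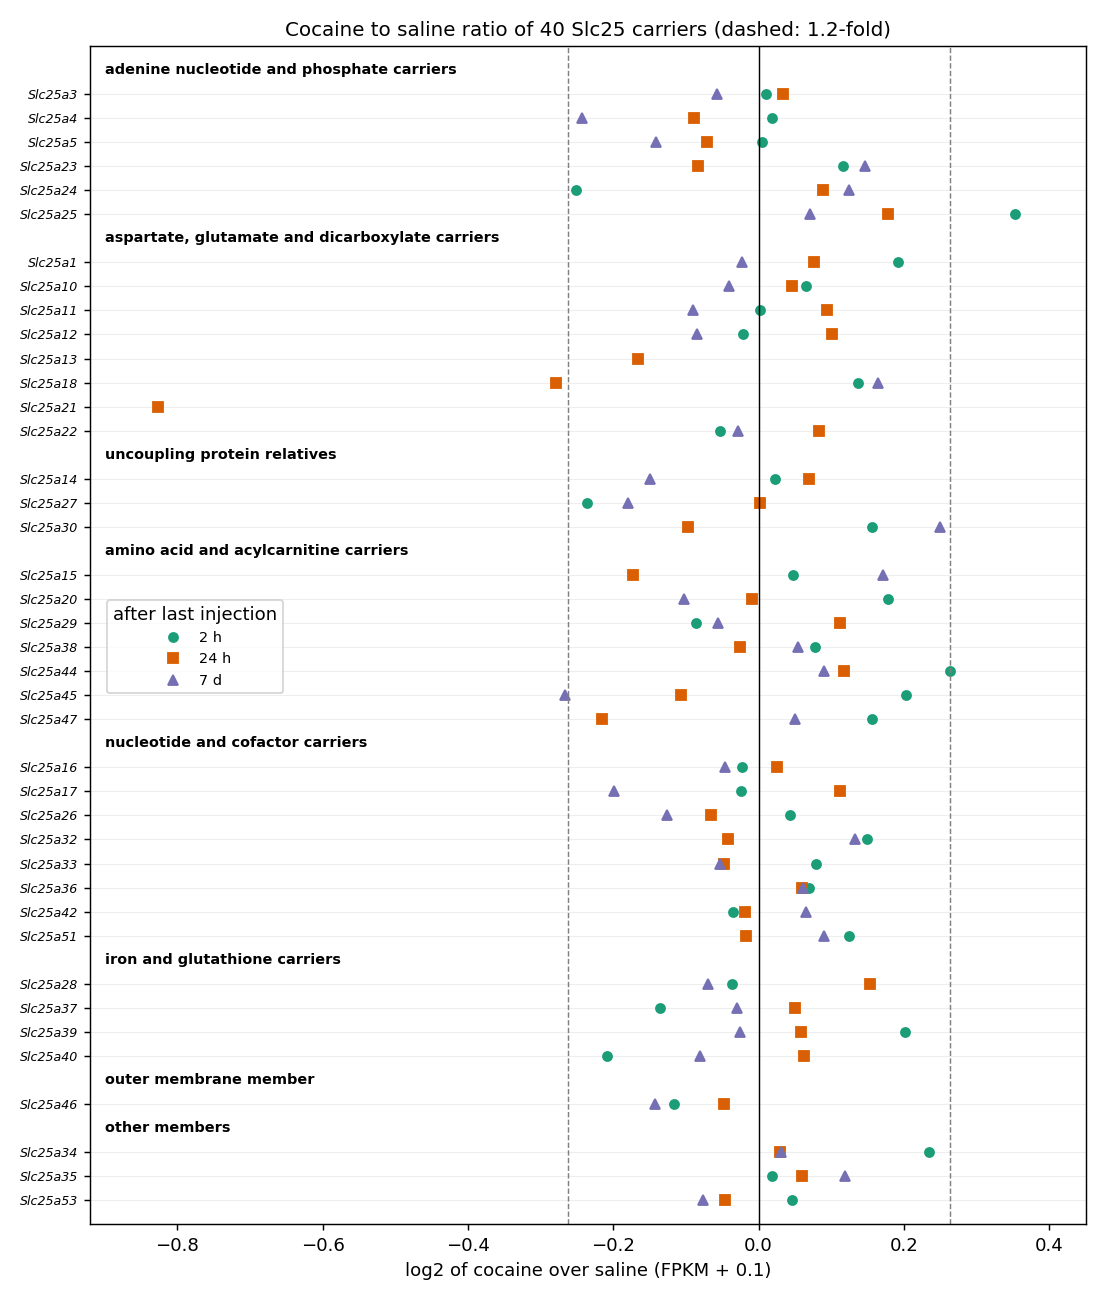
The log2 ratio of cocaine to saline of 40 Slc25 carriers, grouped by substrate, at 2 h (circles), 24 h (squares) and 7 d (triangles), with dashed lines at 1.2-fold. Most symbols lie between the lines, with Slc25a25 at 0.35 (2 h), Slc25a18 at -0.28 and Slc25a21 at -0.83 (24 h) and Slc25a45 at -0.27 (7 d) outside them.

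Among the ADP/ATP and phosphate carriers, Slc25a4 (chr8:46206797-46211284, GRCm38) measured 337 FPKM in saline and 341 FPKM in cocaine at 2 h, 355 and 333 FPKM at 24 h, and 396 and 334 FPKM at 7 d. Its log2 ratios were 0.02, -0.09 and -0.24. The cocaine groups lay within 333 to 341 FPKM while the saline groups reached from 337 to 396 FPKM, so the lower ratio at 7 d went with the highest saline level of the 3. Slc25a5 (chrX:36795651-36798809) measured 167.0 and 167.5 FPKM at 2 h, 162 and 154 FPKM at 24 h, and 177 and 161 FPKM at 7 d, with log2 ratios of 0.00, -0.07 and -0.14. Both ADP/ATP carriers thus had the same order of ratios, highest at 2 h and lowest at 7 d, with overlapping saline and cocaine ranges. Less the length trend described further on, Slc25a5 had 0.02, -0.07 and -0.02, lowest at 24 h, while Slc25a4 kept its order. Slc25a3 (chr10:91116574-91124059), which brings in the phosphate for ATP synthesis, measured 180 and 181 FPKM, 195 and 199.8 FPKM, and 192 and 185 FPKM. Its log2 ratios were 0.01, 0.03 and -0.06, within the 1.08-fold spread of its saline groups.

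The ATP-Mg/phosphate carriers set the size of the adenine nucleotide pool of the matrix and respond to cytosolic calcium. Slc25a23 (chr17:57041775-57065918) measured 121 FPKM in saline and 131 FPKM in cocaine at 2 h, 132 and 125 FPKM at 24 h, and 112 and 123 FPKM at 7 d. Its log2 ratios of 0.12, -0.08 and 0.15 changed sign between time points and lay within the 1.18-fold spread of its saline groups. Slc25a25 (chr2:32413665-32456953) measured 12.6 and 16.2 FPKM at 2 h, 13.1 and 14.9 FPKM at 24 h, and 12.2 and 12.8 FPKM at 7 d. All 3 ratios were above 0 and were smaller at each later time (0.35, 0.18 and 0.07). The cocaine level at 2 h, 28.0% above its control, lay above all 3 saline groups, which differed by at most 1.08-fold, while the cocaine level at 7 d lay inside their range. Of 8778 loci with a mean of at least 5 FPKM, 373 had a higher ratio at 2 h. A second entry of the same gene over the same span was listed at 1.06 and 1.099 FPKM at 2 h, 1.07 and 0.873 FPKM at 24 h and 0.635 and 1.04 FPKM at 7 d.

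Slc25a25 has 3 transcript starts in RefSeq, and the 250 bases before each are shown because it was the member past 1.2-fold at 2 h. They lie on the minus strand at chr2:32451471-32451720, chr2:32431152-32431401 and chr2:32424067-32424316 (GRCm38.p6) and are written 5′ to 3′ along the gene. The window before the start of Slc25a4 (chr8:46211063-46211312, minus strand) is shown beside them as that of the most abundant member. Capitals mark CCAAT or its complement ATTGG, and TGACGTCA, the palindromic cyclic AMP response element.
Slc25a25, start 1: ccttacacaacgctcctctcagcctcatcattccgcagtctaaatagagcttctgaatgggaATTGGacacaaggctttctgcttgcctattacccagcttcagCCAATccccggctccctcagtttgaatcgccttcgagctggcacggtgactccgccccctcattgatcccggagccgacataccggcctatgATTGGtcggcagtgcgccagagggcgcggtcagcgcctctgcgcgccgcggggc
Slc25a25, start 2: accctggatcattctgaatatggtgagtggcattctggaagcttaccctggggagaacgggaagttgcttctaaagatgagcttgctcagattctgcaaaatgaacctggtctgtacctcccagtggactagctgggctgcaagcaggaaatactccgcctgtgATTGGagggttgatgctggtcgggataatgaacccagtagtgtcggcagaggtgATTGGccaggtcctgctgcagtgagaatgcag
Slc25a25, start 3: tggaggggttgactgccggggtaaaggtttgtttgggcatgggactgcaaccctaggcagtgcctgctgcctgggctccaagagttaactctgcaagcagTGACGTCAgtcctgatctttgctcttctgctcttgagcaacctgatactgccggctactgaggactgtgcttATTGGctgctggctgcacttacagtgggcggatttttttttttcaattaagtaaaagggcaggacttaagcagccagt
Slc25a4: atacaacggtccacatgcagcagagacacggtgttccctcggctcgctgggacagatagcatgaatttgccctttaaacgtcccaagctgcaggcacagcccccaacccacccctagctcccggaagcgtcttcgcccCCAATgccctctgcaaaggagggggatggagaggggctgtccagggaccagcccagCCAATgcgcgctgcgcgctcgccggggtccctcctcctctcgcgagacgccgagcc
TGACGTCA stands 150 bases before the third start of Slc25a25 and not in the windows of the other starts. Over 32851 RefSeq windows of this length 1.55% held it on either strand, as did 2 of the 42 windows of the 32 members with an entry, those of Slc25a25 and the nucleotide carrier Slc25a36. CCAAT on either strand was in 33.8% of all windows and in 21 of the 42 member windows, of 18 members. Of the other letters searched on both strands, TCAAGGTCA (estrogen-related receptors) was in no member's window and in 0.387% of all windows, the palindrome of nuclear respiratory factor 1 was in no member's window and in 0.782%, and CACGTG (the E-box) was in 7 of the 42 member windows, of 6 members, and in 6.02% of all windows. The tables do not tell the starts apart, so the level from each start is not known here.

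The carriers of the malate-aspartate shuttle differed little between cocaine and saline. Slc25a11 (chr11:70642136-70651421) measured 56.0 FPKM in saline and 56.1 FPKM in cocaine at 2 h, 52.4 and 56.0 FPKM at 24 h, and 56.2 and 52.8 FPKM at 7 d. Its log2 ratios of 0.00, 0.09 and -0.09 stayed within its 1.07-fold saline spread. The aspartate/glutamate carrier Slc25a12, its partner in the shuttle, had ratios of -0.02, 0.10 and -0.09. Those of 24 h and 7 d went beyond its narrow 1.03-fold saline spread. Less the length trend described further on, its ratio at 7 d was -0.17. The citrate carrier Slc25a1, which supplies cytosolic acetyl-CoA, had 0.19, 0.08 and -0.02, and the dicarboxylate carrier Slc25a10 had 0.06, 0.05 and -0.04. The oxodicarboxylate carrier Slc25a21 was past the threshold at 24 h, but at 0.523 FPKM in saline and 0.251 FPKM in cocaine both values were low.

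The 2 glutamate carriers went in opposite directions at each time. Slc25a18 (chr6:120773768-120793982) measured 38.6 FPKM in saline and 42.5 FPKM in cocaine at 2 h, 46.3 and 38.2 FPKM at 24 h, and 40.7 and 45.7 FPKM at 7 d. Its log2 ratios were 0.14, -0.28 and 0.16. The saline groups of Slc25a18 differed from each other by just under 1.2-fold, and at 24 h the saline level was the highest and the cocaine level the lowest of the 6. Slc25a22 (chr7:141429739-141437892) measured 73.4 and 70.8 FPKM, 75.8 and 80.4 FPKM, and 69.5 and 68.2 FPKM, with log2 ratios of -0.05, 0.08 and -0.03. Each of these lay within its 1.09-fold saline spread.

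Markers of astrocytes, the cell type in which Slc25a18 is mainly expressed in brain, had the same sign of ratio at each time. The summed FPKM of Aqp4, Gja1, Aldh1l1, Slc1a3 and Gfap was 319 in saline and 351 in cocaine at 2 h. It was 367 in saline and 327 in cocaine at 24 h, then 313 and 351 by 7 d. Of these 5 markers 5 were higher in cocaine at 2 h, 0 at 24 h and 5 at 7 d. Slc25a18 amounted to 12.1% of that sum in both groups at 2 h, 12.6% in saline and 11.7% in cocaine at 24 h, and 13.0% in both at 7 d. The order higher, lower, higher was also that of Slc25a15, Slc25a23 (0.12, -0.08 and 0.15), Slc25a30, Slc25a32, Slc25a38, Slc25a47 and Slc25a51. The share of all genes with that order was not computed. The part of astrocyte RNA in the Slc25a18 result was not tested, and in tissue RNA fewer cells of a type and less RNA per cell cannot be told apart. Markers of other cells also moved. All 5 oligodendrocyte markers were lower in cocaine at 24 h (median log2 ratio -0.19), and the 4 meningeal fibroblast markers were all higher at 2 h (0.13) and all lower at 24 h (-0.24). The 4 endothelial markers were all higher at 2 h (0.17). Medians with the order higher, lower, higher of the astrocyte markers were also those of microglia (0.14, -0.08 and 0.14) and endothelial cells (0.17, -0.01 and 0.16). Meningeal fibroblasts had it too (0.13, -0.24 and 0.18). Single markers of these 3 lists went the other way at some times. Oligodendrocytes (-0.10, -0.19 and 0.03) and cortical projection neurons (0.03, 0.08 and 0.02) had another order. The choroid plexus marker Ttr went from 1.90 FPKM in saline to 0.461 FPKM in cocaine at 2 h. At 7 d Ttr went from 0.284 to 6.54 FPKM. Folr1, the other choroid plexus marker with status OK then, went the other way, from 0.668 to 0.290 FPKM. Kcne2, Clic6 and Aqp1, also of that list, stayed at or below 0.219 FPKM.

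**Figure D4:**
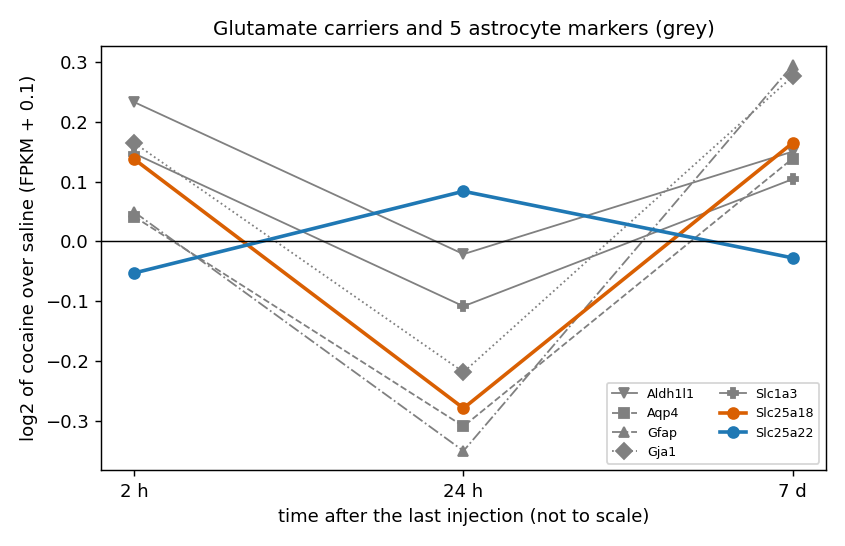
The log2 ratio of cocaine to saline (vertical axis) at 2 h, 24 h and 7 d for Slc25a18 (orange), Slc25a22 (blue) and 5 astrocyte markers (grey). Slc25a18, at 0.14, -0.28 and 0.16, has the sign of the markers each time, as do some carriers and the medians of some other cell markers not drawn here. Slc25a22 has the opposite sign each time.

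The relatives of the uncoupling proteins, Slc25a14, Slc25a27 and Slc25a30, had no member past 1.2-fold. Slc25a14 measured 22.8 to 25.3 FPKM over the groups and had ratios of 0.02, 0.07 and -0.15. Slc25a27, found mainly in neurons, had -0.24, 0.00 and -0.18. Slc25a30 was low, at 1.499 to 1.94 FPKM, and its ratio of 0.25 at 7 d lay just under the threshold and within its 1.30-fold saline spread.

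Of the 7 amino acid and acylcarnitine carriers measured at all times, 6 were above 0 at 2 h, 2 at 24 h and 4 at 7 d. Slc25a44, the carrier of branched-chain amino acids, measured 22.4 FPKM in saline and 26.9 FPKM in cocaine at 2 h, 20.9 and 22.7 FPKM at 24 h, and 20.001 and 21.3 FPKM at 7 d. Its ratio of 0.26 at 2 h lay just under the threshold with the added 0.1 FPKM and just over it without, and like Slc25a25 it had a smaller ratio at each later time (0.12 and 0.09). Slc25a45 (chr19:5877808-5885767) measured 0.812 and 0.950 FPKM at 2 h, 1.01 and 0.935 FPKM at 24 h, and 1.26 and 1.03 FPKM at 7 d. Its ratios of 0.20, -0.11 and -0.27 lay within the 1.55-fold spread of its saline groups, the widest in the family. The ornithine carrier Slc25a15 and Slc25a47 had a ratio of one sign at 24 h (-0.17 and -0.22) and of the other at the remaining times (0.05 and 0.17 for Slc25a15, 0.16 and 0.05 for Slc25a47). The acylcarnitine carrier Slc25a20, which brings fatty acids in for oxidation, had 0.18, -0.01 and -0.10. The glycine carrier Slc25a38, needed for heme synthesis, had 0.08, -0.03 and 0.05.

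The 9 nucleotide and cofactor carriers had no ratio past 1.2-fold. At 2 h their log2 ratios lay between -0.04 and 0.15, at 24 h between -0.07 and 0.11, and at 7 d between -0.20 and 0.13. The lowest at 7 d was Slc25a17, the peroxisomal carrier of coenzyme A and related cofactors, at 20.7 FPKM in saline and 18.0 FPKM in cocaine. The NAD carrier Slc25a51 had ratios of 0.12, -0.02 and 0.09, and the pyrimidine nucleotide carrier Slc25a36 had 0.07, 0.06 and 0.06, all above 0.

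The iron and glutathione carriers are the mitoferrins Slc25a37 and Slc25a28 and the glutathione carriers Slc25a39 and Slc25a40. None of the 4 was past 1.2-fold, and the paralogs Slc25a39 and Slc25a40 had ratios of 0.20 and -0.21 at 2 h, 0.06 each at 24 h, and -0.03 and -0.08 at 7 d. All 4 were above 0 at 24 h and all 4 below 0 at 7 d. Less the length trend described further on, the 7 d ratios were above 0 for Slc25a28 (0.04) and Slc25a39 (0.09). Those of Slc25a37 (-0.07) and Slc25a40 (-0.05) stayed below it. Slc25a37, the mitoferrin of developing red cells, measured 4.29 FPKM in saline and 3.90 FPKM in cocaine at 2 h. At that time the 5 red blood cell markers (4 globin genes and Alas2) were all past 1.2-fold and higher in cocaine. Their summed level was 323 FPKM in saline and 504 FPKM in cocaine, while Slc25a37 was lower. At 24 h, 3 of the 5 were higher, with sums of 458 and 504 FPKM, and Slc25a37 was higher too (4.48 and 4.64 FPKM). The part of red cell RNA in the Slc25a37 values was not tested. At 7 d all 5 were again higher, 2 of them past 1.2-fold, with sums of 452 and 529 FPKM, and Slc25a37 had a ratio of -0.03.

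Over the 3 time points, 5 of 39 members were higher in cocaine each time (Slc25a25, Slc25a34, Slc25a35, Slc25a36 and Slc25a44), where 18.8% of 12957 named genes with a mean of at least 1 FPKM were. Slc25a46, an outer-membrane member that takes part in mitochondrial dynamics, was the 1 member lower each time, beside 14.4% of genes. It measured 23.0 FPKM in saline and 21.2 FPKM in cocaine at 2 h, 23.4 and 22.7 FPKM at 24 h, and 24.3 and 22.0 FPKM at 7 d. All its cocaine values lay below all its saline values, a pattern with the cocaine range below that of saline that 4.51% of genes had and no other member did. The gap was narrow, since the highest cocaine group was within 1 FPKM of the lowest saline group.

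The controls set the scale for these differences. The saline groups of a member differed between times by a median of 1.15-fold (1.16-fold over named genes), and by 1.2-fold or more in 7 of 39 members, beside 39.6% of genes. In 24 of 39 members all ratios lay within the member's own saline spread, as in 56.4% of genes. In 16 members (41.0%) no ratio was past 1.1-fold at any time, as in 28.5% of genes. Slc25a4, Slc25a18, Slc25a25, Slc25a44 and Slc25a46 were among the 15 that went beyond their saline spread at least once.

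At 7 d the ratios of genes with a mean of at least 1 FPKM and a known length depended on transcript length. In 20 equal groups of genes by the length of the longest coding transcript, the median log2 ratio at 7 d went from -0.24 in the shortest group to 0.14 in the longest. The carriers' median length was 2599 nt, beside 3034 nt over all genes with a length. For Slc25a4 the median of genes of its length was -0.07, and its ratio less that value was -0.17. For Slc25a5 the difference from genes of its length was -0.02 and for Slc25a3 it was 0.06, while for Slc25a18 it was 0.29. The part of length in the 7 d ratios was not tested further.

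**Figure D5:**
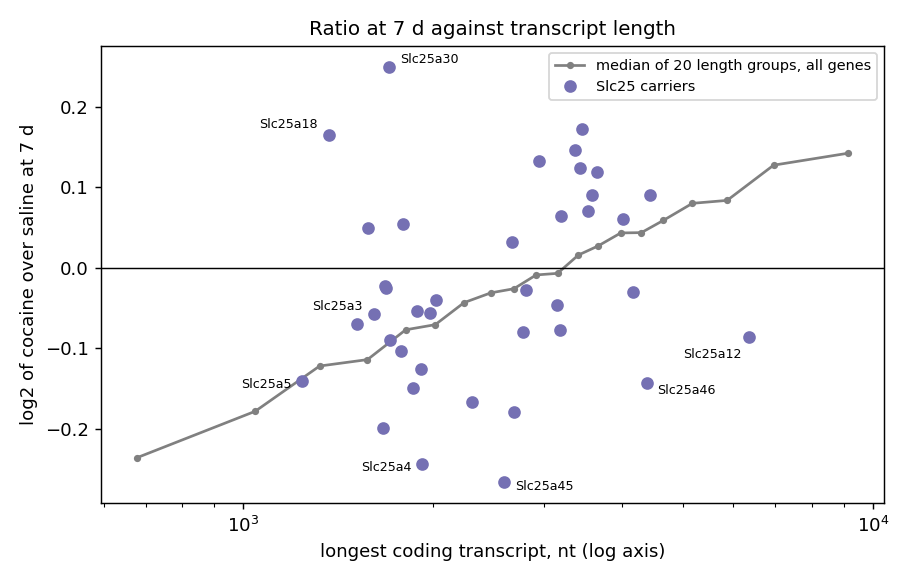
The log2 ratio at 7 d (vertical axis) against the length of the longest coding transcript (log axis) for the Slc25 carriers (purple), with the median of 20 length groups (grey line). These groups hold all genes with a mean of at least 1 FPKM and a known length. The line climbs from -0.24 to 0.14, Slc25a5 lies close to it, Slc25a4 below it and Slc25a18 and Slc25a30 above it.

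Other transport genes of mitochondria were listed for comparison. Among 4 measured carrier-family genes with other names, the uncoupling protein gene Ucp2 was past 1.2-fold at 2 h, at 7.08 FPKM in saline and 12.02 FPKM in cocaine (log2 ratio 0.75), but its saline group at 24 h also stood at 12.03 FPKM. Ucp3 was past it at 24 h, at 1.70 and 1.37 FPKM, but its saline group at 2 h stood at 1.21 FPKM. At 7 d, 3 of 7 genes of the pyruvate carrier and sideroflexin list were lower past 1.2-fold, beside 14.3% of all loci, namely Mpc1 (170 FPKM in saline and 136 FPKM in cocaine), Mpc2 (94.6 and 69.3 FPKM) and Sfxn4 (5.17 and 4.18 FPKM). For each of them the 7 d saline level was the highest of the saline groups. Saline at 2 h and 24 h stood at 133 and 131 FPKM for Mpc1, 71.2 and 73.9 FPKM for Mpc2, and 3.89 and 4.44 FPKM for Sfxn4. The 7 d cocaine levels of Mpc1 and Sfxn4 thus lay inside their saline ranges. Mpc1 and Mpc2 form the pyruvate carrier of the inner membrane, and less the median of genes of their length their ratios of -0.32 and -0.45 became -0.14 and -0.27. At the same time the outer-membrane channel Vdac3 (80.9 and 65.8 FPKM) and the malate dehydrogenase Mdh1 of the shuttle (461 and 381 FPKM) were past the threshold, while the other 2 channels and the other 3 shuttle enzymes were not. Here too saline was highest at 7 d, with 71.1 and 74.6 FPKM for Vdac3 and 410 and 383 FPKM for Mdh1 at 2 h and 24 h. Less the median of genes of their length, the ratio of Vdac3 went from -0.30 to -0.18 and that of Mdh1 from -0.28 to -0.20, so that both, like Mpc1, were no longer past 1.2-fold. In the calcium uniporter list, 1 of 8 genes was lower past the threshold at 2 h (11.7% of all loci), the uniporter subunit gene Mcub, named Ccdc109b in the tables (2.21 and 1.47 FPKM), and at 7 d Mcub was lower again (2.45 and 1.74 FPKM) and the sodium/calcium exchanger Slc8b1 was higher (1.93 and 2.39 FPKM). The saline group of Mcub at 24 h also stood at 1.74 FPKM. Of the mitochondrial biogenesis list, 3 of 7 genes were higher past it at 2 h, beside 12.5% of all loci, namely Tfam (11.7 and 14.7 FPKM), Ppargc1b (0.944 and 1.32 FPKM) and Nrf1 (3.60 and 4.38 FPKM), and Ppargc1b was past it at 24 h (1.09 and 1.44 FPKM). The 24 h saline groups of Tfam (15.3 FPKM) and Nrf1 (4.66 FPKM) stood above their cocaine levels at 2 h. That of Ppargc1b did not. Less the median of genes of its length, the ratio of Nrf1 at 2 h went from 0.27 to 0.24, under the threshold. The lists' medians were -0.09 to 0.03 for the carriers with other names, -0.07 to 0.01 for the pyruvate carrier list, -0.08 to 0.03 for the channels, -0.01 to 0.06 for the uniporter list, -0.06 to 0.02 for the shuttle enzymes and -0.01 to 0.25 for the biogenesis list over the 3 times.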

How the data were processed

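PolyA RNA of 12 samples, 2 per group, was sequenced by the authors. The methods name adaptor trimming with cutadapt, TopHat2 alignment, uniquely mapped reads only and Cufflinks 2.0, with mm9 as the genome. The submitters' processing notes name CASAVA 1.8.2, Trimmomatic 0.32, TopHat2 2.0.12, Cufflinks 2.2.1 with Cuffdiff and GRCm38/mm10. The loci of 41 of 41 carriers overlapped their own gene on GRCm38.p6, and 5 of 39 on NCBIM37, so positions are given on GRCm38, 1-based. The labels and the methods also differ in read length and number of libraries.

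The 3 deposited tables, 1 per time point, hold 1 FPKM per group and locus, which the authors made with Cuffdiff from both libraries. Values per library and depth are not given there, and no test, error or interval was computed. The tables also hold the authors' own comparison (a fold change, a test statistic, p and q values and a call), which was not used. Only their status column was used, as a filter. The headers give the first group of a table a prefix "C", a letter the sample labels use for cocaine as well as for controls. The first value was taken as saline, from the rule that defines the carriers and the headings of the study's supplementary tables. If it were the reverse, every direction would turn.

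A gene with several loci was represented by the longest, with ties going to the higher mean FPKM. Lengths were those of the longest coding transcript of the mouse annotation given for NCBIM37, found for 86.8%, 86.1% and 86.2% of genes with a mean of at least 1 FPKM. Python 3.11.15, pandas 2.3.3, numpy 2.4.6 and matplotlib 3.10.9 were used, and the computation was tested on simulated data. Full values were given for the 6 most abundant carriers and those with a mean of at least 1 FPKM past 1.2-fold, and for companion genes past 1.2-fold at that level. Values of other carriers were chosen after they were seen, and 1 carrier is counted but not reported by name here. The carriers, gene lists and thresholds were chosen with earlier results of these data known. Promoter windows are RefSeq's, for 32 carriers, without the 50 bases after the start.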

Additional observations from a re-analysis of the deposited data

Results flagged for a closer look

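A total of 3 carriers had log2 ratios of opposite sign at neighbouring time points, past 1.1-fold each time. The share of all genes with such a change was not computed, so the count has no background beside it. At single times, 39% (24 h) to 52.3% (7 d) of all loci were past 1.1-fold. Slc25a18 went from -0.28 at 24 h to 0.16 at 7 d, a difference of 0.44. Slc25a15 went from -0.17 to 0.17 over the same times, a difference of 0.35. Slc25a47, at a mean of 1.31 FPKM, went from 0.16 at 2 h to -0.22 at 24 h, a difference of -0.37. None of these differences was tested, since each group has a single pooled value, and each time point was normalized separately against its own controls.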

How the results depend on the processing

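No paired analysis was possible because the tables hold no values per library, and for the same reason no library could be left out in turn. Depth cannot be judged from pooled FPKM, and the counts rest on a few genes near the threshold. The median log2 ratio of the members moved by less than 0.1 under every alternative, though at 24 h and 7 d its sign changed under some of them, and it was 0.02 at 7 d with the length trend subtracted. Of 209 recomputed values of the 9 carriers named by rule, 202 kept their side of the threshold and moved by less than 0.1, 7 did not, and 0 of those past the threshold changed sign. Among ratios not past it, 10 changed sign, all of Slc25a3, Slc25a4, Slc25a5 or Slc25a11 and all at most 0.06 in size, under centring, upper quartile scaling or subtraction of the length trend. The counts past the threshold were as follows. At 2 h, 1 carrier was higher and 0 lower, and this became 2 higher (with Slc25a44) and 1 lower (Slc25a24) with no pseudocount, 1 lower after centring on the median of all loci (Slc25a24), 2 lower after upper quartile scaling (with Slc25a27), 10 higher and 3 lower at 1.1-fold, and 0 higher at 1.5-fold. At 24 h, 0 were higher and 2 lower, and the lower count became 1 among carriers with a mean of at least 1 FPKM, with the length trend subtracted, at 1.5-fold, and among those with a mean of at least 5 FPKM, while 1.1-fold gave 2 higher and 5 lower. The length trend was subtracted only for genes with a mean of at least 1 FPKM, so that step left Slc25a21 out. At 7 d, 0 were higher and 1 lower, and the lower count became 0 with a pseudocount of 1 FPKM, after centring, after upper quartile scaling, with the length trend subtracted, at 1.5-fold and among carriers with a mean of at least 5 FPKM. The higher count at 7 d became 1 with no pseudocount and with upper quartile scaling (Slc25a30) and 2 with the length trend subtracted (Slc25a18 and Slc25a30), and 1.1-fold gave 4 higher and 8 lower. The limit of 5 FPKM was chosen after seeing the data. Apart from that omission of Slc25a21, the cause of these changes was not tested.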

Other observations

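Neighbouring pairs of Slc25 genes numbered 4. Slc25a23 and Slc25a41, 120 bases apart on chromosome 17, reached 132 and 0.0201 FPKM at 24 h. Slc25a5 and Slc25a43, 18448 bases apart on chromosome X, reached 162 and 0.243 FPKM. Slc25a24 and Slc25a54, 6461 bases apart on chromosome 3, reached 0.790 and 0.0160 FPKM. Slc25a29, a carrier of basic amino acids, and Slc25a47, 123 bases apart on chromosome 12, reached 5.73 and 1.56 FPKM, and both were measured at all times. The ratios of that pair had opposite signs each time, with Slc25a29 at -0.09, 0.11 and -0.06 and Slc25a47 at 0.16, -0.22 and 0.05.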
